A study of Mus musculus with 13 samples.

Results

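The genes described here are 10 core genes of the mammalian circadian clock, namely Npas2, Arntl (which encodes BMAL1), Clock, Per1, Per2, Per3, Cry1, Cry2, Nr1d1 and Dbp. They were chosen by gene symbol, and all 10 were found among the 22609 genes of each deposited table. RNA had been sequenced from 13 libraries of C57BL/6 mice, 7 from visceral fat (3 WT, 4 KO) and 6 from tumours grown from transplanted E0771 cells (3 each from WT and KO hosts). E0771 is a mouse breast cancer line, and KO marks a host whose PD-L1, the product of Cd274, was knocked out in fat according to the series title. The fat had been taken after HFD (high-fat diet) feeding, while no diet is given for the tumour hosts. The promoter that drove the knockout, the allele, the hour of harvest and the number of animals behind each library are not given in the sources used here. The p-values below therefore measure the spread between these libraries, which may be technical. The question was how the clock transcripts compared between KO and WT hosts within each tissue.

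The circadian clock is a feedback loop of transcription that runs in nearly every cell. BMAL1 pairs with CLOCK, or with its relative NPAS2, binds E-box elements and switches on the Per and Cry genes, whose products return to the nucleus and repress that pair. In a further loop REV-ERBα, the product of Nr1d1, represses Arntl, while DBP drives genes that carry D-box elements. In adipose tissue this clock is known for timing lipolysis and the secretion of fat-cell hormones, and its transcripts rise and fall over the day.

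The elements through which these proteins act were read from the promoters of the members. RefSeq transcript starts on GRCm38.p6 were matched for 9 of the 10 members by symbol, all but Per2, giving 13 windows of the 250 bases before a start. On either strand, the E-box CACGTG was found in windows of Per1 and Cry1, its variant CACGTT in windows of Cry1, Cry2 and Nr1d1, and the D-box TTATGNAA in windows of Per1 and Per3. The 5 windows with a match are printed 5′ to 3′ on the strand of the gene, with the matches in capitals, because the values of their genes are compared below by the loop they belong to. They are chr11:69098699-69098948 on the plus strand for Per1, and on the minus strand chr4:151044666-151044915 for Per3, chr10:85185055-85185304 for Cry1, chr2:92434070-92434319 for Cry2 and chr11:98775378-98775627 for Nr1d1.
Per1: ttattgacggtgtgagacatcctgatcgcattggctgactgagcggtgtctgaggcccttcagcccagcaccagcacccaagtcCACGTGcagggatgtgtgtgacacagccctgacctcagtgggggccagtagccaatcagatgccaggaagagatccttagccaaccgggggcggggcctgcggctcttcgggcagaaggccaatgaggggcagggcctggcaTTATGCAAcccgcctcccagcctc
Per3: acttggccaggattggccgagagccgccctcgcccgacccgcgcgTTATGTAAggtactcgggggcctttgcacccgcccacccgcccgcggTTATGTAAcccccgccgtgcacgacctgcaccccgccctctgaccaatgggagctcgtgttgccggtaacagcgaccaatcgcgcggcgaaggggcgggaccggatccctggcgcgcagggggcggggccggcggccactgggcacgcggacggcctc
Cry1: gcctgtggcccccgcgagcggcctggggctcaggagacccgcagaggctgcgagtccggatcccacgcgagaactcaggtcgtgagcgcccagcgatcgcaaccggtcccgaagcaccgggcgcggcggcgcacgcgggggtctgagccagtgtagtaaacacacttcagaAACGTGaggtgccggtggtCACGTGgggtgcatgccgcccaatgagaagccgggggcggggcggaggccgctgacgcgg
Cry2: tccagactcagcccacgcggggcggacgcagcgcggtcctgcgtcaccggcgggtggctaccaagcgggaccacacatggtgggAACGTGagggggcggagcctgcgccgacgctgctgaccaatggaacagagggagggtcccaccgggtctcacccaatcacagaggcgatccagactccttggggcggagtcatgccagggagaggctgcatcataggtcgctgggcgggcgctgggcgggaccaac
Nr1d1: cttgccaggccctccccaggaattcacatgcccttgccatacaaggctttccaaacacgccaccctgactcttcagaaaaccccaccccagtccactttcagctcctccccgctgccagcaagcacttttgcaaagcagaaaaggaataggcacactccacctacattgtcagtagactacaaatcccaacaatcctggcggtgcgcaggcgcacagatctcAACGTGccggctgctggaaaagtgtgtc
In Per1 the E-box began 166 bases and the D-box 24 bases before the start, and the Per3 window held 2 D-boxes, at 205 and 158 bases. In Cry1 the E-box lay 60 bases and the variant 79 bases before the start, and in Cry2 and Nr1d1 the variant lay 166 and 28 bases before it. Of all 32851 windows of this length, 6.02% held CACGTG, 3.85% held CACGTT and 3.07% held TTATGNAA. The core of the REV-ERB element, TAGGTCA or TGGGTCA (5.38% of all windows), and the cyclic AMP element TGACGTCA (1.55%) had no match in the windows of these 9 members. A match is a description of letters and not a bound site. The search covered only these exact letters in the 250 bases before a start. Other forms of an element, or one that crosses or follows a start, would be missed. The lack of a match therefore does not show that a promoter, that of Arntl included, lacks the element.

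Gene reads per library ran from 29362788 to 41534662 in fat and from 22834259 to 34706555 in tumours. Fat values are the authors' normalised values, a read count divided by 1 size factor per library, and tumour values are read counts rescaled by TMM library size, so levels were not compared between the tissues. The WT fat columns are numbered 1, 3 and 4 in the deposited table. Cd274 was not lower in fat labelled KO, with 543.9 ± 17.6 (SD, n = 4) against 590.2 ± 129 (SD, n = 3) in WT (log2 fold change -0.10, SE 0.15, limma adjusted p = 0.660), so each direction below rests on the labels. In tumours of KO hosts Cd274 stood at 2043 ± 432 (SD, n = 3), and at 1584 ± 167 (SD, n = 3) where the host was WT (edgeR adjusted p = 0.717). All 10 adipocyte markers were present in every fat library and all 5 epithelial markers in every tumour library. The 5 epithelial markers were also above 0 in every fat library, so their presence does not tell the tissues apart. The allele is not given, and these sums over a gene in whole tissue were not split by exon or by cell type.

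In visceral fat, Npas2 rose in KO, and Clock and Cry2 fell. The change ran in opposite directions for the alternative partners of BMAL1, with Npas2 2.77-fold higher and Clock at 0.612 of its WT level, while Arntl itself did not pass the test. Of the 10 members, 1 rose, 2 fell and 7 did not pass limma with Benjamini-Hochberg adjustment over 14455 genes, in a comparison in which 34.2% of all genes tested passed (16.8% higher, 17.4% lower). The members' share was thus near the background. An unadjusted p under 0.05 was reached by 5 of the 10, against 45.4% of all genes tested. Fits without 1 library called between 2 members (without the WT column numbered 3) and 6 (without that numbered 1). The groups did not overlap for 3 of the 10, against 43.7% of all genes tested (21.6% with KO higher, 22.1% with KO lower). The median log2 fold change of the 10 members was -0.13, and that of all genes tested was 0.00 (-0.000497).

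Npas2, the CLOCK relative, lies on chromosome 1 at 39193731 to 39363236 on the plus strand (GRCm38, GENCODE M21). It stood at 177.2, 120.3 and 102.1 in the WT columns numbered 1, 3 and 4, and at 300.2, 381.9, 336.8 and 437.4 in KO replicates 1 to 4. The lowest KO library was above the highest WT library, and the groups did not overlap. The means were 133.2 ± 39.2 (SD, n = 3) in WT and 364.1 ± 59.2 (SD, n = 4) in KO, a log2 fold change of 1.47 (SE 0.23, limma adjusted p = 0.00243) with a 95% confidence interval of 1.94 to 3.96 for the fold. Over all 35 relabellings of the libraries, a two-sided exact permutation test gave p = 0.0286, the smallest that 4 libraries against 3 allow. Across the 7 fits without 1 library and 6 other settings, the call held throughout, with log2 fold changes of 1.30 to 1.69.

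Clock (chromosome 5, 76209868 to 76304792, minus strand) encodes the usual DNA-binding partner of BMAL1. Its values were 5201, 4516 and 4263 in the WT columns numbered 1, 3 and 4, and 2062, 2913, 3452 and 3141 in KO replicates 1 to 4. Every WT library was above every KO library. The mean was 4660 ± 486 (SD, n = 3) in WT and 2892 ± 596 (SD, n = 4) in KO, a log2 fold change of -0.71 (SE 0.18, limma adjusted p = 0.0174) and a 95% interval of 0.460 to 0.814 for the fold. The call was lost once the WT column numbered 3 was left out, at -0.73 with an adjusted p of 0.0544.

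Arntl (chromosome 7, 113207465 to 113314126, plus strand), whose product BMAL1 both of these partners need, had 1151, 617.3 and 751.7 in the WT columns numbered 1, 3 and 4. In KO replicates 1 to 4 it had 868.7, 970.9, 897.0 and 1091. The WT column numbered 1 exceeded all KO libraries and the other WT columns were below all of them, so the groups overlapped. The log2 fold change was 0.23 (SE 0.21, limma adjusted p = 0.413), with a 95% interval of 0.847 to 1.63 for the fold. Without the WT column numbered 1, Arntl was called higher in KO, at 0.48 (adjusted p = 0.0396).

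**Figure D1:**
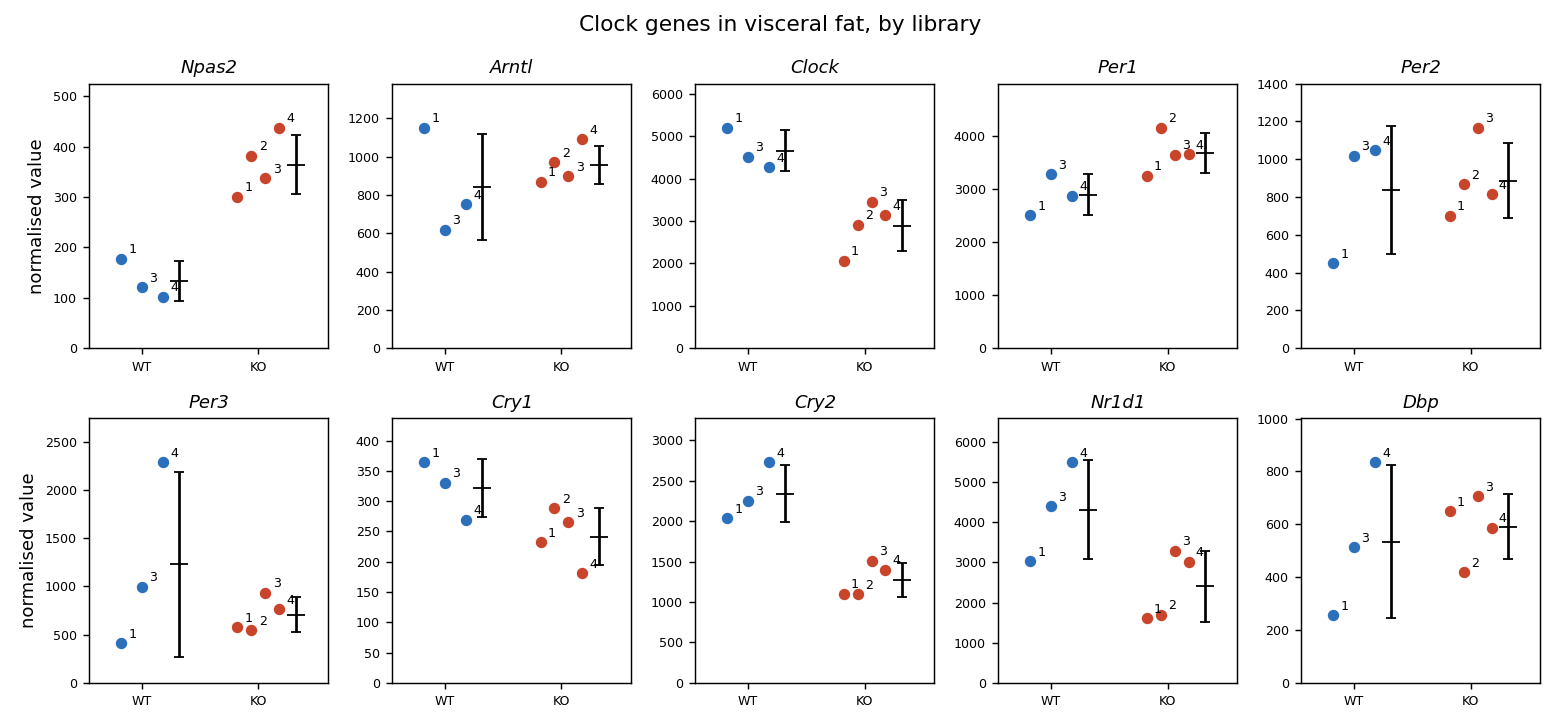
Normalised value (linear axis from 0) of the 10 clock genes in each visceral fat library, with WT in blue and KO in red, numbered by WT column or KO replicate. Bars give mean ± SD (n = 3 WT, n = 4 KO). WT and KO points do not overlap for Npas2, Clock and Cry2, and the WT points of Per3 run from 409.5 to 2284.

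The period genes encode the scaffold proteins of the repressor complex, and none of the 3 passed the test in fat. Per1 (chromosome 11, 69095217 to 69109960, plus strand) had 2509, 3283 and 2877 in the WT columns numbered 1, 3 and 4 and 3251, 4157, 3644 and 3655 in KO replicates 1 to 4. Only the WT column numbered 3 reached into the KO range. Its log2 fold change was 0.35 (SE 0.13, limma adjusted p = 0.0705), with a fold interval of 1.04 to 1.57. Without KO replicate 1 it was called, at 0.41 (adjusted p = 0.0427).

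Per2 (chromosome 1, 91415982 to 91459324, minus strand) stood at 448.2, 1018 and 1048 in WT and at 699.8, 866.3, 1167 and 814.3 in KO. The KO libraries fell between the WT extremes except for KO replicate 3, which was the highest of all 7. Its log2 fold change was 0.16 (SE 0.31, limma adjusted p = 0.729) with a fold interval of 0.683 to 1.82, and the sign turned to -0.25 without the WT column numbered 1.

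Per3 (chromosome 4, 151003652 to 151044665, minus strand), the period gene with the 2 D-boxes printed above, had 409.5, 996.8 and 2284 in WT and 575.1, 542.6, 935.2 and 764.9 in KO. All 4 KO values lay between the lowest and the middle WT value. WT values differed 5.58-fold among themselves, the widest WT range of the 10 members. The log2 fold change was -0.51 (SE 0.50, limma adjusted p = 0.461), with a fold interval of 0.320 to 1.55. Without the WT column numbered 1 Per3 was called lower in KO, at -1.13 (adjusted p = 0.0392), and without the WT column numbered 4 its sign turned, to 0.11.

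The cryptochromes are the repressors that bind CLOCK and BMAL1 directly. Cry2 (chromosome 2, 92403646 to 92434043, minus strand) stood at 2036, 2255 and 2726 in the WT columns numbered 1, 3 and 4 and at 1103, 1097, 1512 and 1399 in KO replicates 1 to 4. All WT libraries were above all KO libraries. The mean was 2339 ± 353 (SD, n = 3) in WT and 1278 ± 210 (SD, n = 4) in KO, a log2 fold change of -0.88 (SE 0.16, limma adjusted p = 0.00465) with a fold interval of 0.423 to 0.703. This call held in the 7 fits without 1 library and in the 6 other settings, with an adjusted p of at most 0.0216.

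Cry1 (chromosome 10, 85131700 to 85185064, minus strand) had 363.9, 330.7 and 269.1 in WT and 231.8, 288.0, 265.1 and 181.4 in KO. The WT column numbered 4 was below KO replicate 2, and the groups overlapped. Its log2 fold change was -0.42 (SE 0.20, limma adjusted p = 0.137), with a fold interval of 0.545 to 1.03. Per kilobase of annotated exon, Cry1 made up 20.9 ± 4.82% (SD, n = 3) of the summed Cry1 and Cry2 value in WT fat and 26.6 ± 5.69% (SD, n = 4) in KO fat, and the libraries of both groups overlapped in this share.

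Nr1d1 (chromosome 11, 98767932 to 98775333, minus strand), the gene of the heme-binding repressor REV-ERBα, stood at 3038, 4408 and 5492 in WT and at 1605, 1701, 3295 and 3022 in KO. The WT column numbered 1 lay below KO replicate 3, so the groups overlapped. The mean was 4312 ± 1230 (SD, n = 3) in WT and 2406 ± 877 (SD, n = 4) in KO, a log2 fold change of -0.88 (SE 0.31) that did not pass limma (adjusted p = 0.0564). It passed without the WT column numbered 1, at -1.11 (adjusted p = 0.0310), and without KO replicate 3, at -1.05 (adjusted p = 0.0320). Exons of Thra on the opposite strand cover 8.55% of its exon bases, and whether the reads were counted by strand is not given in the sources used here.

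Dbp (chromosome 7, 45705088 to 45710203, plus strand), the D-box activator and among the most strongly cycling clock outputs, had 255.5, 513.6 and 834.2 in WT and 650.2, 419.7, 705.5 and 587.5 in KO. WT libraries held both the lowest and the highest of the 7 values. The log2 fold change was 0.28 (SE 0.37, limma adjusted p = 0.590) with a fold interval of 0.678 to 2.16, and it turned to -0.17 without the WT column numbered 1. Sphk2 exons on the opposite strand cover 539 of the 2993 Dbp exon bases.

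The balance between the BMAL1 partners was compared within each library, which leaves library scaling out. Per kilobase of exon, Npas2 made up 8.89%, 7.09% and 6.42% of the summed Npas2 and Clock value in the WT columns numbered 1, 3 and 4. In KO replicates 1 to 4 the share was 29.4%, 27.3%, 21.8% and 28.5%. The mean share was 7.47 ± 1.28% (SD, n = 3) in WT and 26.8 ± 3.40% (SD, n = 4) in KO, and the groups did not overlap. This share restates the Npas2 and Clock values above and is no separate evidence.

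The WT fat libraries differed from each other in a pattern that ran across the loop. The WT column numbered 1 had the highest WT value of Npas2, Arntl, Clock and Cry1 and the lowest of Per1, Per2, Per3, Cry2, Nr1d1 and Dbp. The WT column numbered 4 had the highest of Per2, Per3, Cry2, Nr1d1 and Dbp and the lowest of Npas2, Clock and Cry1. The log2 ratio of Dbp to Arntl was -2.17, -0.26 and 0.15 in the WT columns numbered 1, 3 and 4, and -0.42, -1.21, -0.35 and -0.89 in KO replicates 1 to 4. For Nr1d1 to Arntl, the log2 ratio was 1.40, 2.83 and 2.87 in WT and 0.88, 0.81, 1.88 and 1.47 in KO. In both ratios the WT column numbered 1 stood apart from the other WT columns.

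**Figure D2:**
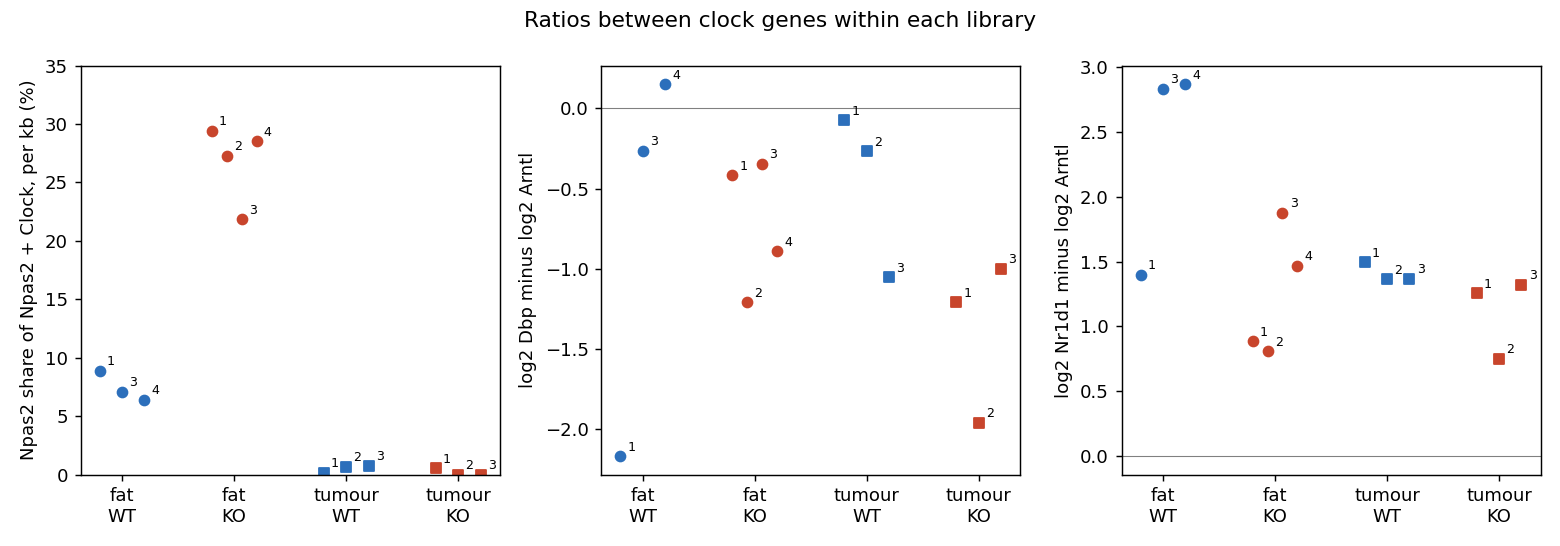
Ratios between clock genes in each library of fat (circles) and tumours (squares), WT in blue and KO in red, numbered by library. Left, share of Npas2 in Npas2 plus Clock per kilobase in percent; middle and right, log2 ratios of Dbp and of Nr1d1 to Arntl. The Npas2 share is 21.8% to 29.4% in KO fat, 6.42% to 8.89% in WT fat and under 1% in tumours.

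The same WT libraries also differed in markers of other cells. The summed level of 10 macrophage markers was 132717, 74708 and 45220 in the WT columns numbered 1, 3 and 4, and 238517 to 350191 in KO. Of 5 male germ cell markers, the sum was 590.1, 232.8 and 42.3 in the same WT columns, against 0 to 3.63 in KO, where all 5 were at 0 in KO replicate 1. All 10 macrophage markers were called higher in KO, and all 10 adipocyte markers lower, with sums of 916716 to 1096890 in WT and 284971 to 443073 in KO. Lower calls also covered 8 of 8 endothelial markers (sums of 50072 to 64856 in WT and 21096 to 34719 in KO) and 3 of 4 mesothelial markers (3893 to 7001 and 2111 to 4080). Higher calls covered 4 of 5 mast cell markers (1081 to 3364 and 4058 to 15628) and 2 of 6 fibroblast markers (212277 to 406069 and 433037 to 631179). The part of these cell types in the clock values was not tested, and in whole tissue fewer cells of a type and less RNA per cell cannot be told apart.

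Levels between genes were set side by side per kilobase of annotated exon. In WT fat, Nr1d1 was highest at 1402 ± 400 (SD, n = 3), followed by Per1 at 513.1 ± 68.8, Cry2 at 370.1 ± 55.8 and Clock at 339.5 ± 35.4. Dbp, Per2, Per3, Arntl and Cry1 followed at 178.6 to 96.2, each overlapping its neighbour in this order over the libraries, and Npas2 was lowest at 27.8 ± 8.18. In KO fat Nr1d1 (781.9 ± 285, SD, n = 4) and Per1 (653.0 ± 65.9) overlapped, and Clock and Cry2 stood at 210.7 and 202.2, overlapping with each other and Cry2 with Dbp. Npas2, at 76.0 ± 12.4, overlapped with Per3 at 73.3 and Per3 with Cry1 at 72.3.

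Beyond the 10 members, 44 further genes of the clock and of the signals that set it were listed by role, and 43 were tested in fat. Of these, 8 rose, 2 fell and 33 did not pass, in a table in which 34.2% of genes passed. Their median log2 fold change was 0.16. Among the 8 that rose, changes were largest in Bhlhe41 (DEC2, an E-box competitor), Wee1 and Ciart. Ciart (listed as Gm129) encodes a repressor of CLOCK and BMAL1, and Wee1 the E-box-driven kinase that restrains entry into mitosis.

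Bhlhe41 stood at 147.1, 77.3 and 104.1 in WT and at 274.9, 425.1, 287.8 and 300.3 in KO, which was 1.57 higher on the log2 scale in KO (SE 0.25, limma adjusted p = 0.00287). Wee1 had 363.0, 439.2 and 315.5 in WT and 1215, 1432, 689.1 and 723.6 in KO, which was 1.38 higher (SE 0.28, limma adjusted p = 0.00645). In both genes the groups did not overlap, and KO replicate 2 was the highest library. Ciart was low throughout, at 13.8, 15.7 and 21.7 in WT and 39.0 to 43.3 in KO (log2 fold change 1.24, SE 0.28, limma adjusted p = 0.0104), a scale on which the change of low genes is understated. Cipc (listed as 2310044G17Rik), a binding partner of CLOCK, rose by 0.67 (SE 0.19, adjusted p = 0.0248). Bhlhe40, the DEC1 gene, did not pass at 0.47 (adjusted p = 0.0998), nor did Timeless (0.16) and Nono (0.19).

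Outside the members, the genes of the second loop and of the D-box family named here were not called in fat. Nr1d2, the gene of REV-ERBβ, was at 0.20 (SE 0.21, limma adjusted p = 0.494). The ROR activator gene Rora was at -0.70 (SE 0.60), and Rorb did not reach the filter on low values. Tef and Hlf, relatives of Dbp, were at -0.50 (SE 0.29) and -0.98 (SE 0.44), and Nfil3, which competes for the D-box, at 0.24 (SE 0.39). Arntl2, the BMAL1 relative, was at -0.07 (SE 0.42). Nr1d2 and Tef shared the order of Nr1d1 and Dbp among the WT columns (Tef 2044, 3933 and 5523 in columns 1, 3 and 4), and Nfil3 had the opposite order (1050, 399.1 and 284.6).

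Among modifiers, outputs and entry signals, the ubiquitin ligase gene Fbxl21, which acts on CRY, fell by 0.84 (SE 0.28, limma adjusted p = 0.0447), while the other 7 kinase and ligase genes did not pass. Of the glucocorticoid-responsive genes, the kinase gene Sgk1 rose by 0.83 (SE 0.12, adjusted p = 0.00203), from 2348 ± 80.8 (SD, n = 3) to 4191 ± 516 (SD, n = 4), and Nr3c1, the glucocorticoid receptor gene, fell by 0.47 (SE 0.14, adjusted p = 0.0308). The cold-inducible RNA-binding gene Rbm3 rose by 0.49 (SE 0.17, adjusted p = 0.0485), the CREB target Sik1 by 0.43 (SE 0.12, adjusted p = 0.0231) and the output Lgals8 by 0.39 (SE 0.10, adjusted p = 0.0196). In each of the lists of glucocorticoid-responsive, temperature-responsive, CREB and immediate early, and output genes, 4 genes did not pass. Log2 fold changes above and below 0 numbered 3 and 3, 4 and 1, 3 and 2, and 4 and 2 in that order. The fits without 1 library called between 4 and 15 of the 43 genes. The lowest count, 4, came without KO replicate 2 and without KO replicate 4, 5 were called without the WT column numbered 3, 6 without that numbered 4, and 15 without that numbered 1. Bhlhe41, Wee1, Sgk1 and Ciart were called in each of these 7 fits. The other 6 called genes each lost their call in 4 to 6 of the 7, with adjusted p of at most 0.139 in limma.

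**Figure D3:**
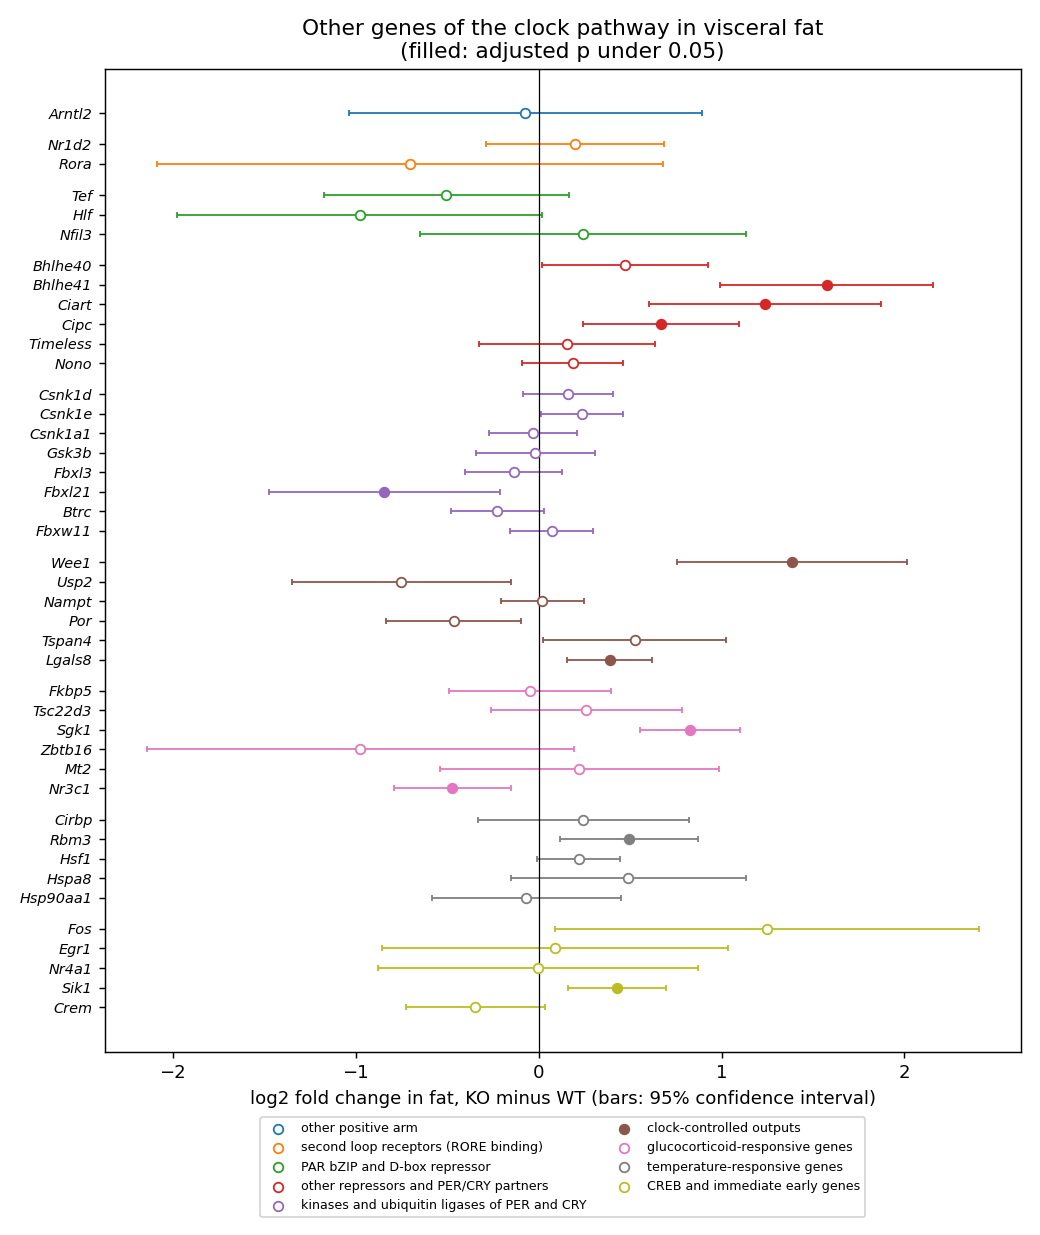
Log2 fold change, KO minus WT, of further clock-pathway genes in visceral fat, grouped by role and coloured by group, with 95% confidence intervals from limma. Filled points mark an adjusted p under 0.05: 8 genes lie to the right of 0 and 2, Fbxl21 and Nr3c1, to the left.

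In the E0771 tumours no clock gene passed the test, and among the 9 members tested the largest difference was in Dbp, at 0.530 of its WT level. Of 13109 genes tested with edgeR's quasi-likelihood test, 0 passed after adjustment (0% of genes tested), and 6.90% had an unadjusted p under 0.05. Of the 10 members 9 were tested, 0 passed and 1, Dbp, had an unadjusted p under 0.05. DESeq2 called 47 genes higher and 12 lower in the same tumours, which was 0.348% of the 16949 genes it tested. Of the called genes 1, Dbp, was a member. The members' median log2 fold change was -0.02, and that of all genes tested 0.00 (0.00368).

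Dbp had 824.5, 839.2 and 559.6 normalised reads in WT hosts 1 to 3 and 435.1, 271.4 and 469.2 in KO hosts 1 to 3. Every WT tumour was above every KO tumour. The mean was 741.1 ± 157 (SD, n = 3) against 391.9 ± 106 (SD, n = 3), a log2 fold change of -0.92 (SE 0.22, edgeR adjusted p = 0.446) and a 95% interval of 0.377 to 0.745 for the fold. DESeq2 gave -0.92 with an adjusted p of 0.0168. An exact permutation test (two-sided, 20 relabellings) gave p = 0.1, the smallest that 3 libraries against 3 allow.

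Nr1d1 had 2448, 2605 and 3005 normalised reads in WT hosts and 2404, 1784 and 2347 in KO hosts, a log2 fold change of -0.30 (SE 0.14, edgeR adjusted p = 0.737). Clock had 1581, 1980 and 2056 in WT hosts and 2143, 2194 and 2453 in KO hosts (0.27, SE 0.13, adjusted p = 0.752). Cry1 had 347.7, 330.3 and 389.5 in WT hosts and 485.6, 465.1 and 401.9 in KO hosts (0.34, SE 0.16, adjusted p = 0.731). With Dbp, these were the 4 of 9 tested members whose groups did not overlap, 2 with KO higher and 2 with KO lower, where 10.6% of all genes tested did not overlap (5.68% with KO higher and 4.93% with KO lower).

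The other tested members overlapped between hosts. Arntl had 867.8, 1011 and 1163 normalised reads in WT hosts 1 to 3 and 1006, 1059 and 939.6 in KO hosts 1 to 3, a difference of -0.02 (SE 0.14) with a fold interval of 0.794 to 1.23. Cry2 had 764.4, 935.6 and 872.0 in the WT and 1003, 682.9 and 960.9 in the KO hosts (0.04, SE 0.17), with a fold interval of 0.800 to 1.33. KO host 2 had the lowest value of Cry2 and the highest KO value of Arntl.

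Of the period genes in tumours, Per1 ran over 789.0, 926.1 and 1265 in WT hosts and 1206, 984.9 and 1111 in KO hosts (0.15, SE 0.18). Per2 had 171.4, 231.0 and 240.8 in WT hosts and 242.8, 113.4 and 204.3 in KO hosts (-0.19, SE 0.28). Per3 had 292.6, 505.1 and 459.2 in WT hosts and 349.9, 247.2 and 352.5 in KO hosts (-0.40, SE 0.23, edgeR adjusted p = 0.782). WT host 1 was the lowest WT library in all 3 period genes, and KO host 2 the lowest KO library. WT host 1 was the lowest of the WT hosts in 8 of the 10 members, and KO host 2 the lowest of the KO hosts in 6.

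Npas2 was hardly detected in the tumours: it had 1, 5 and 6 reads in WT hosts 1 to 3 and 5, 0 and 0 reads in KO hosts 1 to 3, where a count of 0 allows up to 3 reads. It did not reach the filter on low values. Without the filter the edgeR log2 fold change was -1.21 (SE 1.42, adjusted p = 0.883), and DESeq2 gave -1.36 (SE 1.93) with no adjusted p, so no difference was detectable at this depth.

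**Figure D4:**
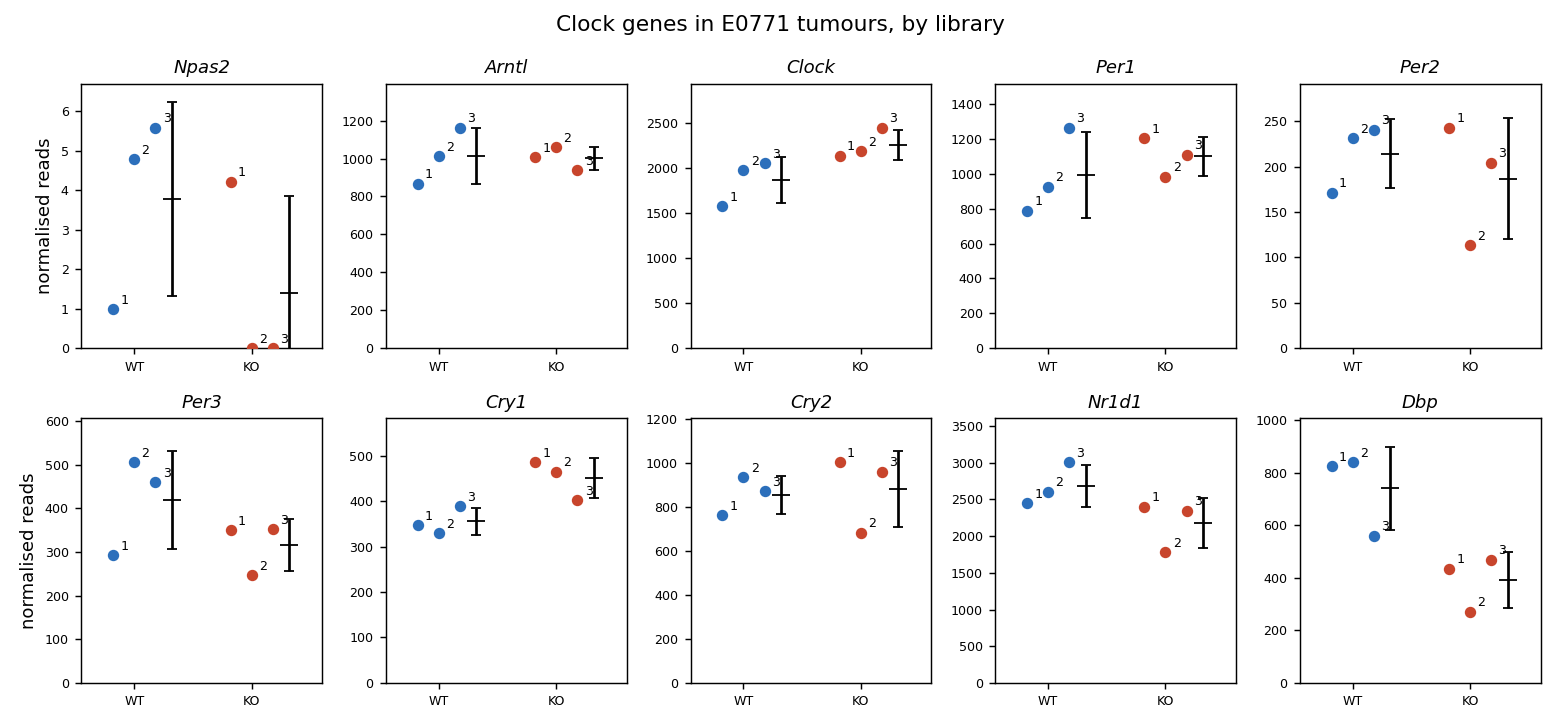
Normalised reads (linear axis from 0) of the 10 clock genes in each E0771 tumour library, with WT hosts in blue and KO hosts in red, numbered by replicate. Bars give mean ± SD (n = 3 each, cut at 0 for Npas2). Dbp lies between 559.6 and 839.2 in WT hosts and between 271.4 and 469.2 in KO hosts, and Npas2 has under 6 normalised reads everywhere.

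Per kilobase, Nr1d1 was again the highest member in tumours, at 872.9 ± 93.3 (SD, n = 3) in the WT and 707.9 ± 111 (SD, n = 3) in the KO hosts, with no overlap with the next gene. Dbp came next in WT hosts at 247.6 ± 52.6, overlapping with Per1 at 176.4, and had rank 7 of 10 at 130.9 ± 35.3 in KO hosts, overlapping with Arntl at 133.1. Per3 and Per2 were low (43.6 and 36.6 in WT hosts, 32.9 and 31.9 in KO hosts) and overlapped with each other. The log2 ratio of Dbp to Arntl was -0.07, -0.27 and -1.05 in WT hosts and -1.21, -1.96 and -1.0002 in KO hosts, so that WT host 3 lay beside the KO tumours.

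Of the 43 further clock-pathway genes tested in tumours, edgeR called 0 and 6 had an unadjusted p under 0.05 (6.90% of all genes tested), and DESeq2 also called 0. Bhlhe41 was at -0.83 (SE 0.31, edgeR adjusted p = 0.676), with 171.4, 170.9 and 138.5 normalised reads in WT hosts and 127.3, 52.2 and 88.7 in KO hosts. Nr4a1 was at -0.57 (SE 0.17, adjusted p = 0.552) and Tspan4 at -0.30 (SE 0.12, adjusted p = 0.676). Smaller differences were those of Tef (-0.25, SE 0.12), Hsp90aa1 (0.27, SE 0.14), Nr3c1 (0.17, SE 0.13) and Fbxl21 (-0.16, SE 0.21).

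edgeR called no marker of another cell type in tumours, and the sums of the mast cell and B cell markers did not overlap between the hosts. Summed levels of 5 mast cell markers were 697.9 to 1607 in WT hosts and 2569 to 8713 in KO hosts, with 5 of 5 at an unadjusted edgeR p under 0.05. Those of 5 T cell markers were 2718 to 3738 and 3406 to 7631, with 4 of 5 under 0.05. Both sums were highest in KO host 2, which also had the lowest Dbp. The sums of 4 B cell markers were 277.0 to 306.5 in WT hosts and 179.6 to 262.5 in KO hosts, lower in every KO tumour, with 1 of 4 under 0.05. Those of 5 skeletal muscle markers overlapped, at 112.3 to 450.9 and 60.6 to 141.4, with 2 of 4 tested under 0.05. The part of these cell types in the clock values was not tested.

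Whether the KO minus WT difference itself differed between the tissues was tested as an interaction in 1 limma fit over all 13 libraries and 12529 genes. The fat came after HFD feeding, the diet of the tumour hosts is not given, and the tumours grew from transplanted cells. Tissue could not be told apart from these in the fit. Clock and Cry2 passed, in a fit in which 18.7% of all genes tested passed (10.6% with the fat difference higher and 8.05% with it lower). At an unadjusted p under 0.05 stood 4 of the 9 members tested, against 33.0% of all genes. The fat minus tumour difference was -0.99 on the log2 scale for Clock (SE 0.23, limma adjusted p = 0.0115) and -0.90 for Cry2 (SE 0.24, adjusted p = 0.0213). Clock was called in each fit without 1 library. Cry2 was lost without tumour KO host 1, KO host 3 or WT host 1, with adjusted p of 0.0510, 0.0601 and 0.0567.

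Cry1, lower in 3 of 4 KO fat libraries than in any WT fat library and higher in KO tumours, was at -0.76 (SE 0.26, limma adjusted p = 0.0553). Dbp was at 1.21 (SE 0.49, adjusted p = 0.102). Both passed when the spread was estimated within each tissue and p was read from a normal distribution. Such a p is smaller than a t test would give with so few libraries. Adjusted p was then 0.0144 and 0.0223, in a setting that called 27.8% of all genes. In limma, both passed without the WT fat column numbered 4 (0.0371 and 0.0231). Cry1 also passed without KO fat replicate 2 (0.0486). Nr1d1 was at -0.57 (SE 0.38, adjusted p = 0.328), and the intervals of Arntl (-0.33 to 0.81), Per1 (-0.31 to 0.67), Per2 (-0.59 to 1.40) and Per3 (-1.47 to 1.23) covered 0. Npas2 was not in this fit, since it did not reach the filter on low values in tumours. Of the 43 further clock-pathway genes tested, 5 had a higher difference in fat and 1 a lower, against 10.6% and 8.05% of all genes. The higher ones were Bhlhe41 (2.49, SE 0.43, adjusted p = 0.00282), Ciart, listed as Gm129 (1.70), Wee1 (1.42), Sgk1 (0.86) and Tspan4 (0.83), and the lower one was Nr3c1 (-0.64, SE 0.19, adjusted p = 0.0323).

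**Figure D5:**
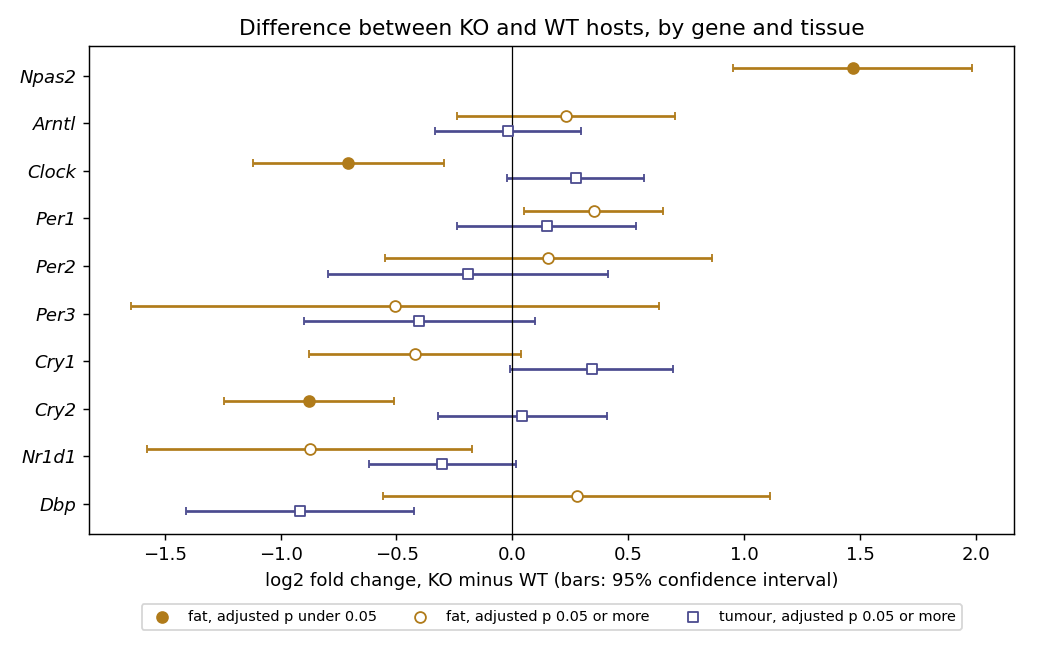
Log2 fold change, KO minus WT, of the 10 clock genes in fat (circles) and tumours (squares) with 95% confidence intervals, from limma in fat and edgeR in tumours. Filled symbols mark an adjusted p under 0.05, reached in fat by Npas2 (1.47), Clock (-0.71) and Cry2 (-0.88) and by no gene in tumours, where Npas2 did not reach the filter on low values.

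The genes whose values followed Npas2 and Arntl most closely over the 7 fat libraries were listed by Pearson's r of log2 values after each group's mean was subtracted, over 12712 genes with a mean of 50 or more. For Npas2 they included Efr3b (0.989), Mdga1 (0.987), A930038C07Rik (0.981) and Osbpl3 (0.980). For Arntl they were Ptchd1 (0.984), Ier2 (0.984), Mutyh (0.978), Htr2b (0.975) and Cwc25 (0.975). Between the members, r was 0.830 for Npas2 with Arntl, -0.845 for Npas2 with Dbp and -0.788 for Arntl with Per2. Of the 12712 genes, Arntl had rank 751 for Npas2, and Npas2 had rank 268 for Arntl. The other pairs of Npas2 or Arntl with a member were weaker, down to 0.173 for Npas2 with Cry1 and 0.060 for Arntl with Cry1. These values are descriptions over the same 7 libraries of whole fat.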

How the data were processed

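mRNA from 7 visceral fat and 6 E0771 tumour libraries was analysed. About 500 ng of RNA went into each TruSeq stranded library, per the labels' protocols. CASAVA, TopHat, DESeq2 and the build mm10 are named per the submitters' processing notes, without versions or roles; the counting tool and strand setting are not given in the sources used here. For tumours the authors deposited read counts per gene; 5 summary lines without a gene (66.7% to 72.2% of entries per library) were left out. For fat the authors deposited a normalised signal per gene, whole reads divided by 1 size factor per library, since 100% of 117220 values tested came out whole within 0.001 (0.860 to 1.104 per read). Fat was tested with limma 3.58.1 (trend, log2(value + 1), after a filter asking for 10 or more in 3 or more libraries) and tumours with edgeR 4.0.16 (TMM, filterByExpr, quasi-likelihood) in R 4.3.3. Fold changes in fat are on the log2(value + 1) scale, which makes changes of low genes look smaller. All tests compared KO with WT and were two-sided, with Benjamini-Hochberg adjustment over all genes tested and a threshold of 0.05. Tumour values shown are TMM-rescaled counts. The interaction used limma on both tables side by side. DESeq2 1.42.0 was an alternative, as were other scalings, filters, pseudocounts (0.5 and 5) and fits without 1 library. The code was tested on simulated data. Depth ran from 22834259 to 41534662 gene reads per library.

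Groups came from the sample titles; the WT fat columns carry numbers (1, 3, 4) that differ from the labels (1 to 3) and were assigned to the WT group only. No pair of libraries in a group looked like a duplicate (chi-square per degree of freedom 24.2 to 235). The members, gene lists and marker lists were chosen with earlier results of these data known. The text names all 10 members, all genes of 4 pathway lists, the called genes of the other lists (or the smallest p per list and tissue), and the 5 genes most like Npas2 and Arntl in fat; the results of some of these are not reported here. Exon lengths and gene positions are GENCODE M21 on GRCm38; promoters are RefSeq on GRCm38.p6. Cipc and Ciart are in the tables under older symbols.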

Additional observations from a re-analysis of the deposited data

Results flagged for a closer look

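The KO minus WT difference of Clock differed between the tissues, at -0.99 (fat minus tumour, log2; SE 0.23, limma adjusted p = 0.0115 for the interaction). Clock was lower in 4 of 4 KO fat libraries than in any WT fat library. It was higher in 3 of 3 KO tumours than in any WT tumour, but did not pass edgeR there (adjusted p = 0.752). Groups did not overlap for 43.7% of all genes tested in fat and for 10.6% in tumours. The KO minus WT difference of Cry2 also differed, at -0.90 (SE 0.24, limma adjusted p = 0.0213). All 4 KO fat libraries were below all WT fat libraries, and the tumours overlapped between hosts. The Cry2 call was lost without tumour KO host 1, KO host 3 or WT host 1. In the main fit of this interaction 18.7% of all genes tested passed. In the 10 groups of 4 KO fat libraries, 1 for each member, no library stood apart by Dixon's criterion; groups of 3 were not tested.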

How the results depend on the processing

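In fat, 3 clock members were called in each of the 6 settings that kept all libraries (pseudocounts 0.5 and 5, no filter, a stricter filter, TMM scaling, edgeR on recovered reads), and 2 to 6 in fits without 1 library (21.4% to 36.2% of all genes), with 6 without the WT column numbered 1 (Arntl, Clock, Cry2, Npas2, Nr1d1 and Per3). Further pathway genes in fat were called in 4 to 15 cases without 1 library. In tumours DESeq2 called 1 member (Dbp), and the other settings 0, for members and pathway genes alike; DESeq2 and the fit without a filter included Npas2. The tissue difference was called for 4 of 9 members with the spread estimated within each tissue and p read from a normal distribution (27.8% of all genes). It was called for 1 to 4 without 1 library (12.7% to 22.8% of all genes), against 2 (18.7%) in the main fit. Signs turned only in values that were not called in all libraries, given here with their lowest and highest value over the fits without 1 library. In fat these were Per2 (-0.25 to 0.37), Per3 (-1.13 to 0.11) and Dbp (-0.17 to 0.68). In tumours they were Arntl (-0.13 to 0.092), Per2 (-0.44 to 0.063) and Cry2 (-0.067 to 0.20). In the tissue difference they were Per1 (-0.0086 to 0.33) and Per3 (-0.75 to 0.49). Of the single-gene values under the alternatives, 425 kept direction and side of the threshold, 35 lost a call, 11 gained one and 12 turned sign; the cause was not tested. Over all genes, the fat calls ran from 1575 higher and 1490 lower (without the WT column numbered 3) to 2691 and 2502 (without that numbered 1), against 2430 and 2517, and the tumour calls were 47 and 12 with DESeq2, 21 and 1 without a filter, 10 and 11 without WT 3 and 9 and 0 without KO 3, against 0.

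With the replicate number as a block in tumours, edgeR called 0 members and 0 pathway genes. Deviations from the group mean correlated at -0.22, 0.01 and -0.22 in same-numbered tumours, and at -0.10 to 0.27 in differently numbered ones. With 3 libraries a group, these values cannot show whether the numbers pair the samples. No paired analysis was possible in fat because the WT columns carry numbers that do not match the labelled replicates. The hour of harvest is not given, so host and hour could not be told apart for any difference, large or small, and this was not tested. With 3 or 4 libraries a group, the size of small differences stays uncertain, and Npas2 in tumours had at most 6 reads.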
